A study of Mus musculus with 29 samples.

Results

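The genes described here encode the nuclear subunits of the mitochondrial respiratory chain and ATP synthase. They were taken from the count tables by symbol: Nduf followed by a, b, c, s or v and a number, Sdha to Sdhd, every Uqcr gene, every Cox gene numbered 4 to 8, and every Atp5 gene. This gave 84 of 23337 genes. Of these, 81 encode subunits: 35 of complex I, 4 of complex II, 8 of complex III, 19 of complex IV (with Ndufa4, which is now counted to this complex in spite of its name) and 15 of complex V. The other 3, Atp5s, Atp5sl and Cox4nb, carry the names but encode no subunit. The subunits encoded by mitochondrial DNA were not analysed here.

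Electrons from NADH enter the chain at complex I and those from succinate at complex II. They pass through coenzyme Q, complex III and cytochrome c to complex IV, which hands them to oxygen. Complexes I, III and IV pump protons across the inner mitochondrial membrane, and complex V uses the return flow of protons to make ATP. Several subunits of complexes IV and V exist in more than 1 form, each from its own gene, with some forms largely kept to heart and skeletal muscle, testis or lung.

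RNA was sequenced from 29 libraries of C57BL/6 mouse embryos at E9.0 that carry a Dll1-YFP mark, which labels cells that have expressed the paraxial mesoderm gene Dll1 and their progeny. CTRL and DIR (n = 4 each) were Dll1-lineage cells from explanted presomitic mesoderm, collected by their fluorescence, from explants cultured without (CTRL) or with (DIR) LDN, an inhibitor of BMP receptors, and SAG, an activator of Hedgehog signalling. Such cells sorted without culture made up SOMA (n = 3) and, with n = 4 in each, SOMB, SOMC and SOMD. They came from successive levels of the body axis: the presomitic mesoderm with the newest somite, somites 2 to 5, somites 6 to 9, and somites from 10 to the last one listed for the replicate, 13 to 16. MUT and WT (n = 3 each) were unsorted trunk tissue, in which other cell types are present. The labels do not state which allele MUT carries, and nothing in them tells if replicates came from separate embryos or cultures. The p-values thus measure only the spread between these samples, which may be technical.

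The libraries held 11541131 to 44363411 gene counts. SOMC1 with SOMC4 and SOMD1 with SOMD4 were nearly identical (chi-square per degree of freedom 1.95 and 1.91, against 9.24 to 217.1 for the other pairs within groups). They differed by more than sampling noise and were kept apart, but this does not show that they are independent samples. Reads aligned at more than 1 place made up 38.8 to 40.6% in WT and MUT and at most 25.4% elsewhere. None of 7 markers of presomitic and paraxial mesoderm was at 0 in any group, which does not show that the groups are alike. In SOMD against SOMA 5 of the 7 were called lower and 1 higher. In WT and MUT, 5 red blood cell markers summed to 965 to 2694 CPM (counts scaled to a common library size), against 3.83 to 84.5 CPM in the other groups. Levels are given in CPM scaled by TMM, and levels of different genes are compared only per kb of transcript. Differences are log2 fold changes ± SE, called when the edgeR adjusted p-value was below 0.05.

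In SOMA the subunits of complex V had the highest median mRNA level and those of complex I the lowest. The median over the members with at least 1 CPM per kb was 226.4 CPM per kb for complex V, 213.7 for complex IV, 130.3 for complex III, 105.5 for complex II and 80.8 for complex I. The order differed between groups: in WT complexes III (76.7) and II (75.4) stood above complex V (65.5), and in SOMC complex IV (215.2) above complex V (212.3). The most abundant member was Atp5b, the catalytic beta subunit of complex V, at 866 ± 55.8 CPM per kb (SD, n = 3). Next came Atp5g3, one of 3 genes for the ring subunit c, at 488 ± 19.6, and Atp5a1, the alpha subunit that alternates with beta, at 435 ± 42.0. Members of 1 complex differed several-fold from each other: complex I ran from 25.1 CPM per kb for Ndufb4 to 167.5 for Ndufb8, and complex III from 33.2 for Uqcrq to 304.9 for Uqcrh. Within complex II, Sdhd (114.6), which anchors the complex in the membrane, and the flavoprotein Sdha (107.5) were close together, whereas Sdhc, the other anchor, stood at 33.1 CPM per kb. Ndufs5 and Cox8c had no count in any library. A near copy in 1 pseudogene covers 60.8% of the Ndufs5 transcript, and the annotation behind the counts is not given. The lack of counts therefore does not show that Ndufs5 was silent, and it enters the summed level of complex I as 0. Of the 84 members 35 share at least 100 bases at 95% identity or more with another annotated gene or pseudogene, up to 11 of them for Atp5l. Their counts are uncertain. Genes that overlap a member at its own locus were not set aside, so some of the 35 may be such overlaps and not copies elsewhere.

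In the 4 sorted groups and the cultured groups the complexes kept nearly the same shares of the summed level. Complex V made up 38.2% of the summed CPM per kb in SOMA, 38.6% in SOMD and 35.7% in CTRL, and complex I made up 25.1% in SOMA and 26.8% in CTRL. The summed level of all 81 subunit genes was 10925 to 12233 CPM per kb in SOMA and 10175 to 11465 in SOMD, so these groups overlapped. It was 5276 to 5573 in WT and 6196 to 6451 in MUT, below every sorted and cultured library.

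**Figure D1:**
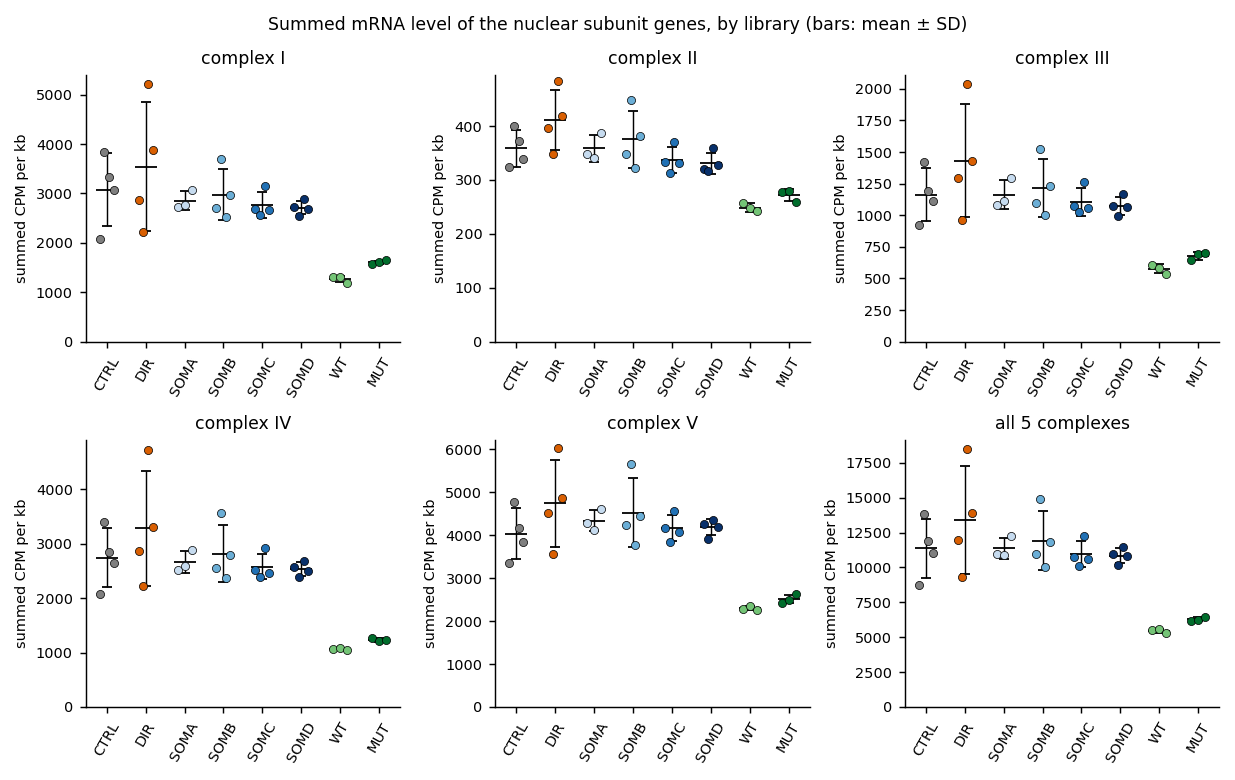
Summed level of the nuclear subunit genes of each complex (CPM per kb of transcript, y axis) in each library (points) of the 8 groups (x axis), with mean ± SD. The WT libraries (5276 to 5573 over all 5 complexes) and the MUT libraries (6196 to 6451) lie below every other library, and DIR has the widest spread (9318 to 18483).

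In SOMA, SOMB, SOMC, SOMD, CTRL and DIR 1 library held the highest value of most members. SOMB2 was the highest SOMB library for 73 of the 75 members with a mean of at least 10 CPM, CTRL2 the highest CTRL library for 73 of 77, DIR3 the highest DIR library for 70 of 76 and SOMC3 the highest SOMC library for 68 of 75. Over all genes at that level the same libraries were highest for 38.0, 25.7, 33.5 and 37.9%. SOMA4 was the highest SOMA library for 61 of 75 members, against 42.1% of all genes. SOMD3 was the highest SOMD library for 45 of 75, against 37.1% of all genes. The median coefficient of variation of the members between libraries was 30.7% in DIR, 21.1% in CTRL and 17.1% in SOMB, against 16.9, 15.0 and 10.0% over all genes. In SOMA, SOMD and WT it was 8.45, 7.05 and 6.53%, against 7.81, 7.77 and 6.58% over all genes. In MUT no library stood out: its libraries were highest for 29, 20 and 20 of 69 members. Where a shift is shared by the members of 1 library, it enters the medians given below.

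Along the somite series most members stayed nearly level. Over the 75 members with at least 10 CPM, the median ratio of the highest to the lowest group mean was 1.12, and over all 9197 genes of that abundance it was 1.14. The largest ratios were those of Ndufa1 (1.30), Uqcrq (1.28) and Ndufa12 (1.23), the last 2 chosen after their values were seen. SOMB had the highest mean for 57 of the 75 members, and for 26.7% of all genes.

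Between neighbouring levels of the axis no member was called. In SOMB against SOMA 0 of 79 members tested passed in edgeR and 0 in DESeq2, where edgeR called 8.67% of all genes (4.13% higher, 4.55% lower). One member, Cox4i2, had an unadjusted p below 0.05. The median difference was 0.06 and 63 members were positive. Without SOMB2 the median was −0.05 and 20 members were positive, and without SOMA4 it was 0.14. In SOMC against SOMB edgeR again called 0 of 79 (0.827% of all genes called, 0.486% higher and 0.341% lower), with 2 members, Ndufs1 and Sdha, at an unadjusted p below 0.05. DESeq2 called Ndufs1 lower (−0.19, adjusted p = 0.02) with 2.07% of all genes. Of the 79 differences 73 were negative, with a median of −0.12, and without SOMB2 the median was 0.01. In SOMD against SOMC no member was called by edgeR or DESeq2 (2.34% of all genes called by edgeR, 1.26% higher and 1.07% lower, and 3.6% by DESeq2) and none had an unadjusted p below 0.05. The median difference was −0.02, and 0.04 without SOMC3. The median 95% interval of a member reached 0.24 on either side of its log2 difference there, and members with narrower intervals allow smaller differences to be seen.

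From the presomitic end to the oldest somites 4 of 79 members fell and none rose, where 8.92% of all genes fell and 10.8% rose (19.8% called). No member had an unadjusted p below 0.05 in the higher direction, and DESeq2 called none higher and 4 lower (21.6% of all genes called). The median over the 79 members was −0.07, with 65 negative, and over all genes 0.00. Without SOMA4 39 members were positive and the median was −0.003. By complex the median was −0.07 for complex I, −0.10 for complex II, −0.09 for complex III, −0.11 for complex IV and −0.05 for complex V. SOMB, SOMC and SOMD share SOMA and each other as controls in these comparisons.

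Cox4i2 fell most. It encodes the second form of subunit IV of complex IV, known from lung and from cells under low oxygen, and lies at chr2:152754173-152765037 (GENCODE M21, GRCm38). Its level was 4.31, 6.54 and 6.97 CPM in SOMA, 2.99, 3.0, 3.97 and 5.44 in SOMB, 2.02, 2.77, 3.77 and 2.23 in SOMC, and 1.47, 3.05, 1.86 and 1.32 in SOMD. Every SOMD library lay below every SOMA library, while neighbouring groups overlapped. The difference between SOMD and SOMA was −1.66 ± 0.31 (edgeR adjusted p = 9.72e-04), or 3.15-fold lower. It was past the threshold in each of 16 alternatives, with adjusted p-values from 5.36e-06 to 0.0066. The steps from group to group were −0.64 ± 0.29, −0.50 ± 0.28 and −0.51 ± 0.30, none of which passed (edgeR adjusted p = 0.237, 0.493 and 0.639). Cox4i1, the form found in most tissues, differed by −0.14 ± 0.14 between SOMD and SOMA (adjusted p = 0.563). Cox4i2 thus made up 2.38 ± 0.18% of the summed level of both genes per kb in SOMA and 0.86 ± 0.31% in SOMD.

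The other calls were small. Ndufa1, a small membrane subunit of complex I encoded on chromosome X (chrX:37187588-37191163), stood at 39.2, 46.2 and 40.7 CPM in SOMA and at 32.9, 32.1, 32.5 and 31.5 in SOMD (−0.38 ± 0.11, edgeR adjusted p = 0.0182). All SOMD libraries were below all SOMA libraries. The call was lost without SOMA3 (adjusted p = 0.112), SOMA4 (0.0513) or SOMD4 (0.0507), and with all 29 libraries in 1 fit (0.345). Sdha, which oxidises succinate, had 311, 301 and 324 CPM in SOMA and 264, 274, 284 and 269.5 in SOMD (−0.19 ± 0.05, edgeR adjusted p = 0.0119), again without overlap. It did not pass without SOMA4 (adjusted p = 0.103) or with the near-identical pairs summed (0.0562). Ndufs1, the largest subunit of complex I and a carrier of iron-sulfur clusters, was at 139.8, 134.0 and 140.9 CPM in SOMA and at 123.5, 123.8, 123.7 and 121.6 in SOMD (−0.16 ± 0.05, edgeR adjusted p = 0.0498). This call was lost in 11 of 16 alternatives, and its exons overlap those of Eef1b2 and Ino80dos on the opposite strand, which these unstranded libraries cannot tell apart. Other core members were within 0.23 of 0: Ndufv1 (−0.07 ± 0.08), Sdhb (−0.10 ± 0.14), Uqcrc1 (−0.07 ± 0.11), Uqcrfs1 (−0.23 ± 0.11), Cox5a (−0.19 ± 0.10) and Atp5b (−0.10 ± 0.09).

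Markers of other cells moved along the same axis. Heart muscle markers (5 genes) summed to 1.26 to 1.91 CPM in SOMA and 8.82 to 68.4 CPM in SOMD, and 4 of the 4 tested rose. Skeletal muscle markers (6 genes) summed to 60.3 to 72.2 and 46.0 to 90.0 CPM, and of the 6 tested 3 rose and 2 fell. The subunit forms of heart and skeletal muscle stayed near 0 in SOMD: Cox6a2 had no count, Cox8b had 4 counts over the 4 libraries and Cox7a1 was at 0.13 to 0.46 CPM. The part of these cells in the falls of Cox4i2, Ndufa1, Sdha and Ndufs1 was not tested.

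Few other genes of mitochondrial metabolism were called between SOMA and SOMD. In the 6 lists of assembly factors, electron carriers, biogenesis, citric acid cycle and import, 4 of 80 were called (5.0%). Of all genes 19.8% were called, 10.8% higher and 8.92% lower. Of 9 assembly factors of complex I none was called, and of 17 of complexes II to V Cox17, a copper carrier for complex IV, fell (−0.27 ± 0.08, edgeR adjusted p = 0.0194). Of 13 electron carriers and coenzyme Q genes none was called; Cycs, the gene of cytochrome c, differed by −0.15 ± 0.14. None of 13 citric acid cycle genes was called, and of 16 genes of import, porins and chaperones Timm50, part of the inner membrane translocase, fell (−0.68 ± 0.11). Among 76 mitochondrial ribosomal protein genes 2 fell and none rose, with a median of −0.10. Among 12 regulators of mitochondrial biogenesis Ppargc1b, a co-activator of genes of oxidative metabolism, rose by 1.48 ± 0.33 (edgeR adjusted p = 0.00416; 0.632 ± 0.120 CPM in SOMA, 1.77 ± 0.50 in SOMD), and Tfb2m, a mitochondrial transcription factor, fell by 0.30 ± 0.09. Nrf1 (0.05 ± 0.06), Gabpa (0.10 ± 0.08), Tfam (−0.17 ± 0.10) and Ppargc1a (−0.61 ± 0.26) did not pass. Ndufa4l2, a paralogue of Ndufa4 induced by low oxygen, differed by −1.01 ± 0.38 (adjusted p = 0.0755). Of 13 genes of the low oxygen response 2 fell (Egln3, −0.93 ± 0.16; Slc2a1, −0.84 ± 0.18) and 2 rose (Adm, 2.19 ± 0.40; Egln1, 0.33 ± 0.08).

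**Figure D2:**
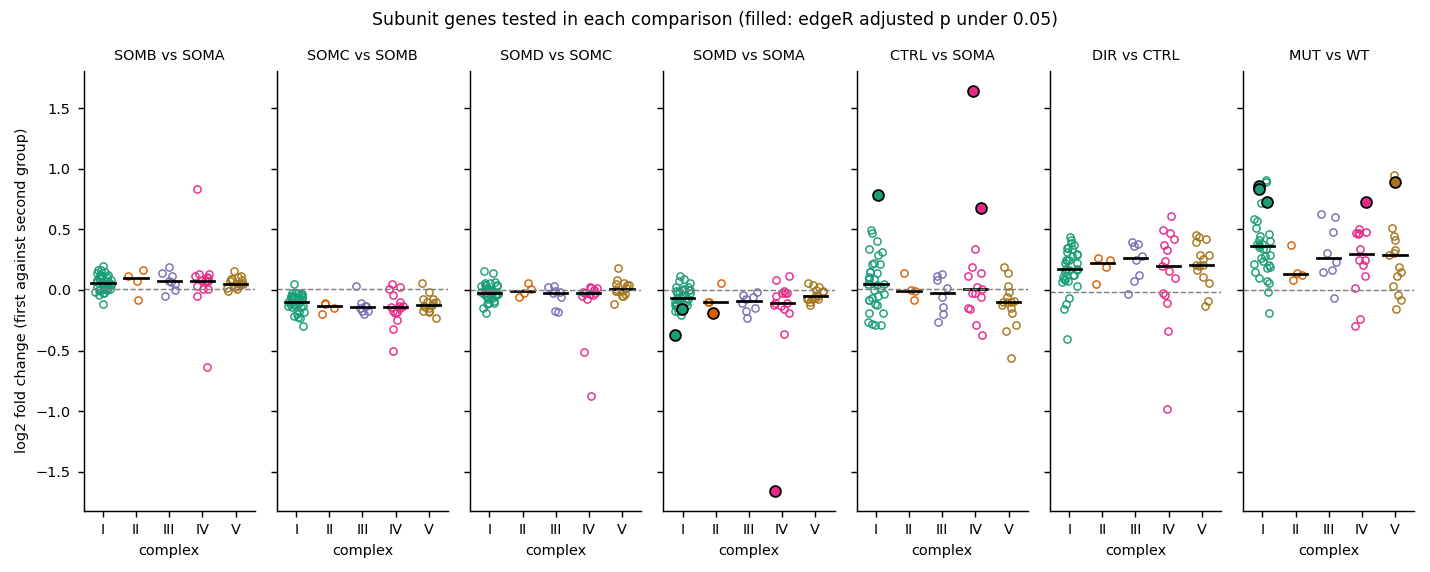
Log2 fold change (y axis) of each tested subunit gene (points) by complex (x axis) in the 7 comparisons. Filled points have an edgeR adjusted p below 0.05, black lines are medians and the dashed line is the median of all genes tested. Cox4i2 (−1.66) stands below the others in SOMD against SOMA, Cox6b2 (1.64) above them in CTRL against SOMA, and the medians of all 5 complexes lie above 0 in MUT against WT.

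The muscle and testis forms of subunits VIa, VIIa, VIIb and VIII were near 0. Cox6a2, the heart and muscle form of subunit VIa, had 28 counts in 7 of the 29 libraries, Cox8b 42 counts in 17 libraries, Cox7a1 341 counts in 28 libraries and Cox7b2, a testis form, 1 count. Cox7a1 made up 0.18 to 0.94% of the summed Cox7a1, Cox7a2 and Cox7a2l level as a group mean. Cox7a2l, a gene related to Cox7a2, made up 29.4 ± 2.58% in SOMA and 42.5 ± 3.77% in CTRL, and Cox7a2 the greater part of the rest. For ring subunit c the 3 genes encode the same mature protein: in SOMA Atp5g3 gave 53.9 ± 0.972%, Atp5g2 25.3 ± 0.301% and Atp5g1 20.9 ± 0.717%. In SOMB, SOMC and SOMD the mean share of Atp5g3 was 53.3, 52.9 and 54.0%. In WT the shares of Atp5g3, Atp5g2 and Atp5g1 were 88.0 ± 1.41%, 10.1 ± 1.29% and 1.85 ± 0.266%. Near copies in other genes cover 88.2% of the Atp5g2 transcript and 69.0% of that of Atp5g1, but none of Atp5g3. Reads aligned at more than 1 place, which the gene counts leave out, were most frequent in WT and MUT. The part of near copies in these shares was not tested.

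Cox6b2, known as the testis form of subunit VIb, was detected in every library. It lies at chr7:4751792-4753094, and Cox6b1, the widely expressed form, at chr7:30616861-30626151. Cox6b2 stood at 2.82 to 4.71 CPM in the sorted libraries and at 8.01 to 13.6 CPM in the cultured ones, without overlap. It made up 3.14 ± 1.04% of the summed Cox6b1 and Cox6b2 level per kb in SOMA, 9.30 ± 1.62% in CTRL and 6.28 ± 1.23% in DIR. In WT it was at 0.0557 to 0.842 CPM and in MUT at 0.209 to 0.484 CPM.

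**Figure D3:**
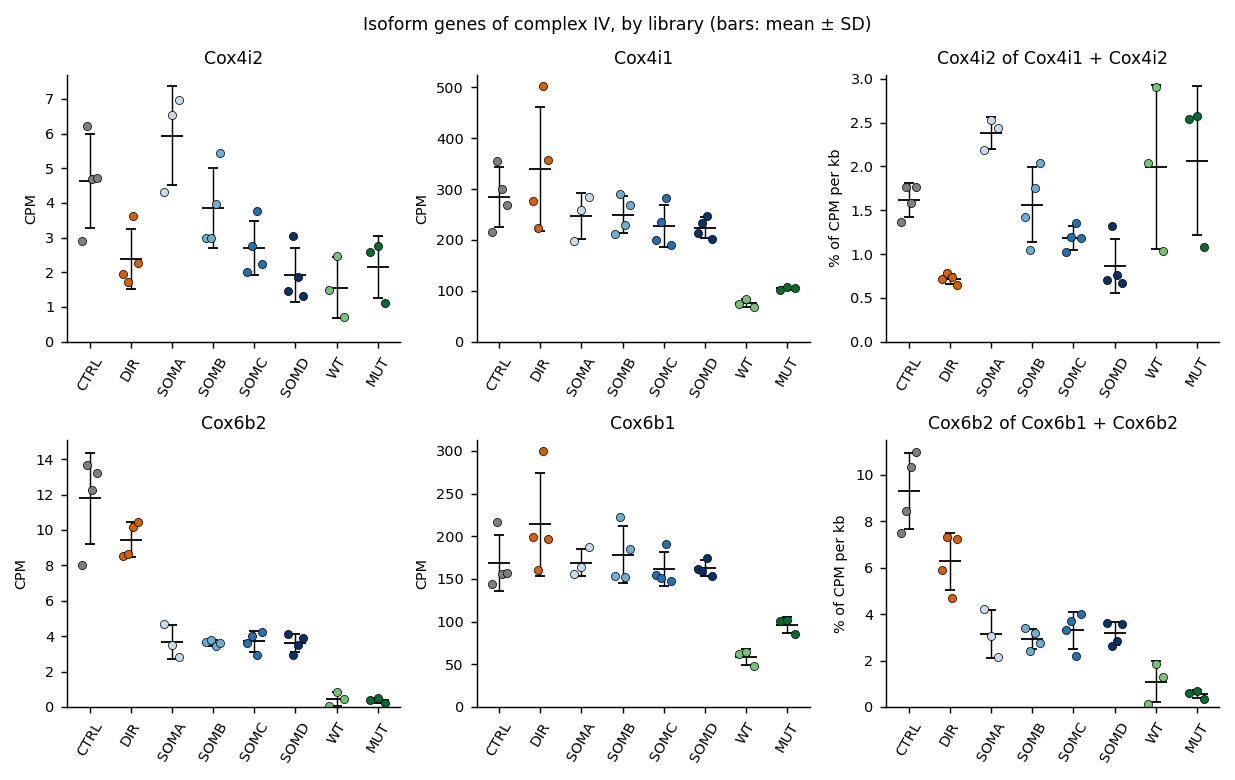
Level (CPM) of Cox4i2, Cox4i1, Cox6b2 and Cox6b1, and the share of the restricted form in each pair (% of CPM per kb), in each library (points) by group, with mean ± SD. The Cox4i2 share falls from 2.38% in SOMA to 0.86% in SOMD and is 1.62% in CTRL and 0.72% in DIR, while Cox6b2 is at 8.01 to 13.6 CPM in cultured and 2.82 to 4.71 CPM in sorted libraries.

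Sequence upstream of the start sites was read for the 69 of 84 members in the RefSeq promoter table (GRCm38.p6), each with 250 bases before and 50 after the start, on both strands. The NRF1 motif, GCGCA and GCGC around 1 free base, named for a factor long known to act on genes of the chain, was in 24.6% of the members' promoters, in 5.19% of all 27025 RefSeq promoters and in 11.1% of those of genes tested in the somite series. CCGGAAG, a core bound by ETS factors such as GABPA, was in 23.2%, against 9.93 and 19.2%, and AAGATGG, bound by YY1, in 17.4%, against 7.28 and 8.08%. The motifs were counted separately, whether or not their matches overlapped. By complex, NRF1 letters were in 6 of 14 promoters of complex V, 7 of 31 of complex I, 2 of 3 of complex II, 1 of 5 of complex III and 1 of 14 of complex IV. None of the 3 motifs was found for the 4 restricted forms with an entry. These are matches of letters and show no binding.

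The 250 bases before the start are shown for Sdha, which holds 3 matches to the NRF1 letters and was among the members that fell along the series, and for the Cox6b pair, of which Cox6b2 rose in CTRL and Cox6b1 was higher in MUT. They run 5′ to 3′ on the minus strand, with matches to the motifs in capitals. For Sdha (chr13:74350241-74350490) the capitals are NRF1 letters, for Cox6b1 (chr7:30626115-30626364) the ETS core on the other strand, and Cox6b2 (chr7:4753095-4753344) holds none.
Sdha: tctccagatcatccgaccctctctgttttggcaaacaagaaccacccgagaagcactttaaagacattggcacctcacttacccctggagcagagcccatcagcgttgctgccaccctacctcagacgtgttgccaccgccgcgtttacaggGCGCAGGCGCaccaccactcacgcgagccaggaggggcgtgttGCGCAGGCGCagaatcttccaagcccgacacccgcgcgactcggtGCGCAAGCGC
Cox6b1: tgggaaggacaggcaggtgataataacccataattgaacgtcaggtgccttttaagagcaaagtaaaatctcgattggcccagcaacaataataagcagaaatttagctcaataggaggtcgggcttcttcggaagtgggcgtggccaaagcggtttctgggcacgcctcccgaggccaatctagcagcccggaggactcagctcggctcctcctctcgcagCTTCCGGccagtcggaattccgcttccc
Cox6b2: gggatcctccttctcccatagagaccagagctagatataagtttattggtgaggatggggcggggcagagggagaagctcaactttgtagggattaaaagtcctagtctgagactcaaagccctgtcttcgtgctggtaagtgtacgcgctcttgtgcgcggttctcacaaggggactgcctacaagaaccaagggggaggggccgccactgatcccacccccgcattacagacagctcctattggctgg

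Cells from cultured presomitic mesoderm explants (CTRL) were set against freshly sorted cells of the presomitic mesoderm with the newest somite (SOMA). Culture, collection, preparation and any difference in the tissue taken cannot be told apart here. Of the 79 members tested 4 were higher and 1 lower, where 12% of all genes were higher and 8.8% lower (20.8% called). Counting subunits alone, 3 were higher and none lower; 3 members other than the lower one, among them Atp5g1, had an unadjusted p below 0.05 in the lower direction, and DESeq2 called 2 lower in all (25.1% of all genes called). The median of the members was −0.003, with 39 positive, and of all genes 0.003.

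Cox6b2 rose by 1.64 ± 0.25 (edgeR adjusted p = 0.0027), from 4.71, 3.53 and 2.82 CPM in SOMA to 8.01, 13.6, 12.3 and 13.2 CPM in CTRL. The groups did not overlap, and the call held in each of 14 alternatives (adjusted p-values up to 0.0397). Cox6b1 differed by −0.02 ± 0.15. Cox7a2l (chr17:83501918-83517330) had 73.5, 82.5 and 99.5 CPM in SOMA and 109, 174, 146 and 124 in CTRL, without overlap (0.68 ± 0.17, edgeR adjusted p = 0.0234). Cox7a2 differed by −0.15 ± 0.13. Ndufa6 (chr15:82350140-82354322), a peripheral subunit of complex I, had 44.9, 45.2 and 52.6 CPM in SOMA and 50.04, 107, 91.7 and 82.9 in CTRL, where CTRL1 overlapped SOMA (0.78 ± 0.22, edgeR adjusted p = 0.0355). The calls of Cox7a2l and Ndufa6 were lost without CTRL2, CTRL3, SOMA1 or SOMA3, and that of Ndufa6 also without CTRL4 or SOMA4. Atp5g1 was lower without overlap (−0.56 ± 0.18, adjusted p = 0.0507) and Cox5a likewise (−0.29 ± 0.12, adjusted p = 0.112), and neither passed. Of the members that are no subunits Atp5s rose (0.91 ± 0.18) and Cox4nb fell (−0.68 ± 0.18), whose exons overlap those of Cox4i1 on the other strand. The call of Cox4nb was lost without CTRL3, CTRL4 or any 1 SOMA library.

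Of 80 genes in the 6 lists of assembly factors, electron carriers, biogenesis, citric acid cycle and import, 5 rose and 13 fell (22.5% called, near the 20.8% of all genes). Among 13 carrier genes Coq9 (0.50 ± 0.12) and Etfb (0.55 ± 0.16) rose and 3 fell. Cycs fell by 0.81 ± 0.13 (edgeR adjusted p = 0.00309; 191 ± 21.2 CPM in SOMA, 110 ± 13.8 in CTRL), Nrf1 by 0.40 ± 0.11 (adjusted p = 0.0258), and Ppargc1b rose by 2.86 ± 0.31 (adjusted p = 6.10e-04; 0.632 ± 0.120 and 4.80 ± 1.30 CPM). Of 12 genes of the low oxygen response 8 fell and 2 rose. Among the falls were Ldha, which makes lactate (−1.66 ± 0.19), Pdk1, which holds pyruvate back from the citric acid cycle (−1.34 ± 0.13), and Higd1a, a small protein of the inner membrane (−0.87 ± 0.12). Cox4i2 differed by −0.37 ± 0.28 and did not pass. Of 76 cytosolic ribosomal protein genes 8 rose and none fell, and of 35 proteasome genes none rose and 9 fell. Endothelium markers (4 genes) summed to 43.6 to 164 CPM in SOMA and 178 to 241 CPM in CTRL. Their part in these differences was not tested.

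The cultured libraries fell into sets that cross the treatment. In CTRL1, DIR1 and DIR2 reads aligned at more than 1 place made up 22.3 to 25.4%, and in the other 5 cultured libraries 15.9 to 19.5%. Ndufs7, the subunit of complex I that holds the last iron-sulfur cluster before coenzyme Q, had 6.72, 7.51 and 6.94 CPM in these 3 libraries and 73.4, 71.6, 66.7, 87.5 and 64.6 CPM in the other 5, a 10.3-fold lower mean. Uqcr11 (7.79-fold), Uqcrq (7.31-fold) and Ndufa13 (3.43-fold), chosen after their values were seen, were lower too. For 32 of 77 members with at least 10 CPM all 3 libraries lay below all 5, for 1 they lay above, and the median log2 ratio was −0.57. Over all 9435 genes of that abundance 22.4% lay wholly below and the median was 0.05. Across these 77 members the ratio had a Spearman correlation of −0.66 with the GC content of the transcript and of 0.33 with its length (−0.76 and 0.42 over all genes). These are descriptions over genes that share the same 8 libraries. Whether GC content, sequence copies or the cells set this split was not tested.

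**Figure D4:**
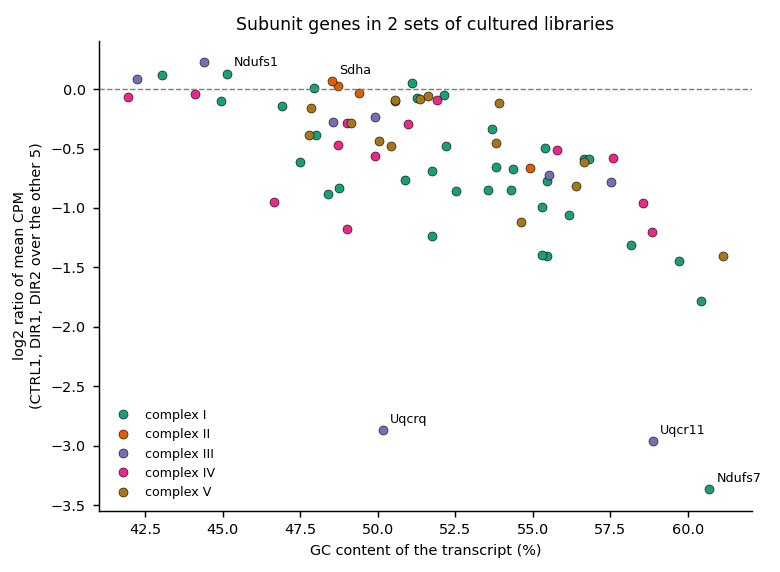
Log2 ratio of mean CPM between CTRL1, DIR1 and DIR2 and the other 5 cultured libraries (y axis) against the GC content of the transcript (x axis) for each subunit gene with at least 10 CPM. Ndufs7, Uqcr11 and Uqcrq lie far below the rest, at 10.3-fold, 7.79-fold and 7.31-fold lower means.

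CTRL1 therefore bears on the comparison of CTRL with SOMA. Without it 16 of 79 members were called higher and 2 lower, where 20.7% of all genes were higher and 17.9% lower, and the median was 0.15, with Ndufs7 (0.60 ± 0.09, edgeR adjusted p = 0.00101), Ndufa7 (0.71 ± 0.11) and Ndufa13 (0.60 ± 0.10) among the higher ones, chosen after their values were seen. After removal, in each library, of a trend with the length and GC content of transcripts, 4 were higher and 18 lower, where 16.9% of all genes were higher and 22.7% lower, and the median was −0.16, Atp5g1 (−0.75 ± 0.07), Cox5a (−0.44 ± 0.08), Cox6a1 (−0.37 ± 0.10) and Uqcrc1 (−0.32 ± 0.10) being among the lower ones. Cox6b2, Cox7a2l, Ndufa6 and Atp5s were called higher under each of these settings.

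LDN and SAG, which the labels describe as inducing sclerotome, changed no member past the threshold. In DIR against CTRL edgeR called 0 of 79 (0.747% of all genes called, 0.303% higher and 0.444% lower), 11 members had an unadjusted p below 0.05 in the higher and 1 in the lower direction, and DESeq2 called none (3.5% of all genes called). The median was 0.20, with 65 positive, against −0.01 over all genes. The medians were 0.17 for complex I, 0.22 for complex II, 0.26 for complex III, 0.20 for complex IV and 0.21 for complex V. Without DIR3, the highest library for most members, the median was 0.02, and without CTRL1 it was 0.09. It was 0.35 without DIR2 and 0.30 without CTRL2. Among the 5 libraries with few multi-aligned reads (CTRL2, CTRL3, CTRL4, DIR3 and DIR4) the median was 0.40. In that set, which keeps DIR3, 77 of 79 were positive and none called (1.78% of all genes called). The median 95% interval of a member was ± 0.51. Neural tube markers (5 genes) summed to 19.0 to 26.1 CPM in CTRL and 29.8 to 47.9 CPM in DIR, without overlap. Of these 4 were positive and Pax6 was negative (−0.19 ± 0.22). Only Olig2 among them was called, and it rose (1.44 ± 0.25, edgeR adjusted p = 0.0337). Red blood cell markers summed to 11.99 to 20.6 and 19.7 to 65.9 CPM, with 5 of 5 positive and none called. The part of these cells in the members' differences was not tested.

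The member with the greatest difference was again Cox4i2. It stood at 2.90, 6.23, 4.69 and 4.71 CPM in CTRL and at 1.94, 1.71, 3.63 and 2.26 CPM in DIR, so that DIR3 overlapped CTRL1 (−0.99 ± 0.30, edgeR adjusted p = 0.205). As a share of Cox4i1 and Cox4i2 together it was 1.36 to 1.76% in CTRL and 0.64 to 0.78% in DIR, without overlap; this share was looked at after the values were seen. It was called lower only with the length and GC trend removed (−0.86, adjusted p = 0.0326). Cox6b2 differed by −0.34 ± 0.19, Cox4i1 by 0.24 ± 0.25, Atp5b by 0.21 ± 0.13, Sdha by 0.05 ± 0.09 and Ndufs1 by 0.13 ± 0.11, none past the threshold. No gene of the assembly, carrier, citric acid cycle, import or biogenesis lists was called. Tfam, which packs and transcribes mitochondrial DNA, differed by 0.35 ± 0.13 (adjusted p = 0.26), Cycs by 0.36 ± 0.19 and Ppargc1a by −0.64 ± 0.38. Of the lists, proteasome genes had a median of 0.26, cytosolic ribosomal protein genes of 0.17 and mitochondrial ribosomal protein genes of 0.13.

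In mutant trunk tissue 5 of 78 members tested were higher than in WT and none lower, where 0.338% of all genes were called (0.331% higher, 0.0069% lower). The 5 were 3 subunits of complex I and 1 each of complexes IV and V. Atp5j2, a subunit of the membrane part of ATP synthase, had 37.7, 35.7 and 27.7 CPM in WT and 65.3, 62.6 and 58.4 in MUT (0.89 ± 0.12, edgeR adjusted p = 0.0365). Ndufb3, in the membrane arm of complex I, had 10.4, 9.83 and 9.34 against 18.8, 17.5 and 17.1 CPM (0.85 ± 0.12, adjusted p = 0.0365). Ndufs7 had 15.4, 15.4 and 16.1 against 25.7, 24.5 and 27.1 CPM (0.72 ± 0.10, adjusted p = 0.0365). In each of these genes, all MUT libraries were above all WT libraries. Ndufs6, an accessory subunit that binds zinc, had 11.4, 12.7 and 9.37 against 20.9, 18.1 and 20.5 CPM (0.83 ± 0.14, edgeR adjusted p = 0.0499), and its exons overlap those of Mrpl36 on the other strand. Cox6b1 had 62.0, 65.0 and 48.0 against 101, 102 and 85.3 CPM (0.73 ± 0.12, adjusted p = 0.0499). They lie at chr5:145183698-145192062 (Atp5j2), chr1:58586384-58595964 (Ndufb3), chr10:80249121-80256794 (Ndufs7) and chr13:73319838-73328542 (Ndufs6).

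Most other members differed in the same direction without passing. Of the 78, 69 were positive with a median of 0.30, against 49.4% positive and a median of 0.00 over all genes. In 48 members the MUT and WT libraries did not overlap, as in 22.2% of all genes tested. An unadjusted p below 0.05 was reached by 46 members in the higher and 2 in the lower direction, and over all genes by 15.5%. DESeq2 called 30 higher and 1, Cox5a, lower (5.21% of all genes called). The median was 0.36 for complex I, 0.13 for complex II, 0.26 for complex III, 0.29 for complex IV and 0.29 for complex V. Cox4i1 (0.47 ± 0.08, edgeR adjusted p = 0.0537), Cox6a1 (0.46 ± 0.10, 0.0709), Ndufv1 (0.38 ± 0.09, 0.078) and Cox5a (−0.30 ± 0.07, 0.0815), which was lower without overlap, lay close to the threshold. Sdha (0.08 ± 0.05), Ndufs1 (0.06 ± 0.06) and Atp5g3 (−0.16 ± 0.08) were nearer 0.

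Without WT3 6 members were called, among 88 of all genes. Without MUT1, MUT2, MUT3, WT1 or WT2 no member was called, and over all genes 7, 0, 1, 0 and 0 were, so nearly all calls were lost with the members'. After removal of the length and GC trend none was called and the median was 0.17. The 25 members with transcripts under 600 bases had a median of 0.40, the 27 from 600 to below 1000 bases 0.38 and the 26 of 1000 bases or more 0.16. All genes of these lengths had medians of 0.11, 0.22 and −0.01. Of 76 cytosolic ribosomal protein genes 13 rose and none fell (median 0.47), of 76 mitochondrial ribosomal protein genes 2 rose (median 0.26) and of 36 proteasome genes 1 rose (median 0.21). Nrf1 (0.00 ± 0.07), Gabpa (−0.10 ± 0.06), Tfam (0.09 ± 0.06) and Ppargc1a (0.35 ± 0.23) did not pass. Red blood cell markers summed to 965 to 2274 CPM in WT and 1471 to 2694 CPM in MUT, markers of endoderm and yolk sac to 16.9 to 97.5 and 15.7 to 27.0 CPM, and neural tube markers to 169 to 267 and 151 to 222 CPM. The part of transcript length and of these cells in the difference was not tested.

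WT trunk libraries are set here beside the sorted SOM libraries as levels only, since tissue, sorting and sequencing run together and cannot be told apart. Fewer cells of a type and less RNA per cell cannot be told apart in any of these bulk samples. Of 78 members with at least 1 CPM in the sorted libraries, 72 had a lower mean in WT, with a median log2 ratio of −1.27, against −0.06 over 12613 genes. Atp5l, a small subunit of complex V, stood at 3.10 to 3.96 CPM in WT and 56.1 to 112 CPM in the sorted libraries, a 21.2-fold difference. Atp5k (16.5-fold) and Atp5g1 (16.2-fold), also of complex V, Cox5b (14.5-fold) of complex IV, and Ndufa3 (11.6-fold) and Ndufa6 (10.8-fold) of complex I followed, all without overlap. Near copies cover 86.8, 56.6, 69.0 and 45.1% of the transcripts of Atp5l, Atp5k, Atp5g1 and Cox5b, whereas Ndufa3 and Ndufa6 have none. Reads aligned at more than 1 place, left out of the gene counts, made up 38.8 to 39.6% in WT and 17.1 to 21.1% in the sorted libraries. The part of near copies in these differences was not tested. At the other end Ndufs1 (160.4 to 169.7 against 120.7 to 155.9 CPM), Ndufb5 (122 to 136 against 66.6 to 112 CPM) and Atp5s were above every sorted library. Atp5c1, Atp5g3 and Cox5a had higher means in WT with overlapping ranges. Most of the genes in this paragraph were chosen after their values were seen.

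Shorter transcripts stood lower in WT. The median log2 ratio was −2.36 for the 25 members under 600 bases, −1.46 for the 27 from 600 to below 1000 bases and −0.77 for the 26 of 1000 bases or more. All genes of these lengths had medians of −1.31, −0.99 and −0.01. The Spearman correlation of the ratio with transcript length was 0.51 across the 78 members and 0.41 over all genes. With the share of the transcript found in near copies it was −0.20, where genes that overlap a member at its own locus were not set aside. These are descriptions across genes of the same libraries, with no test.

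**Figure D5:**
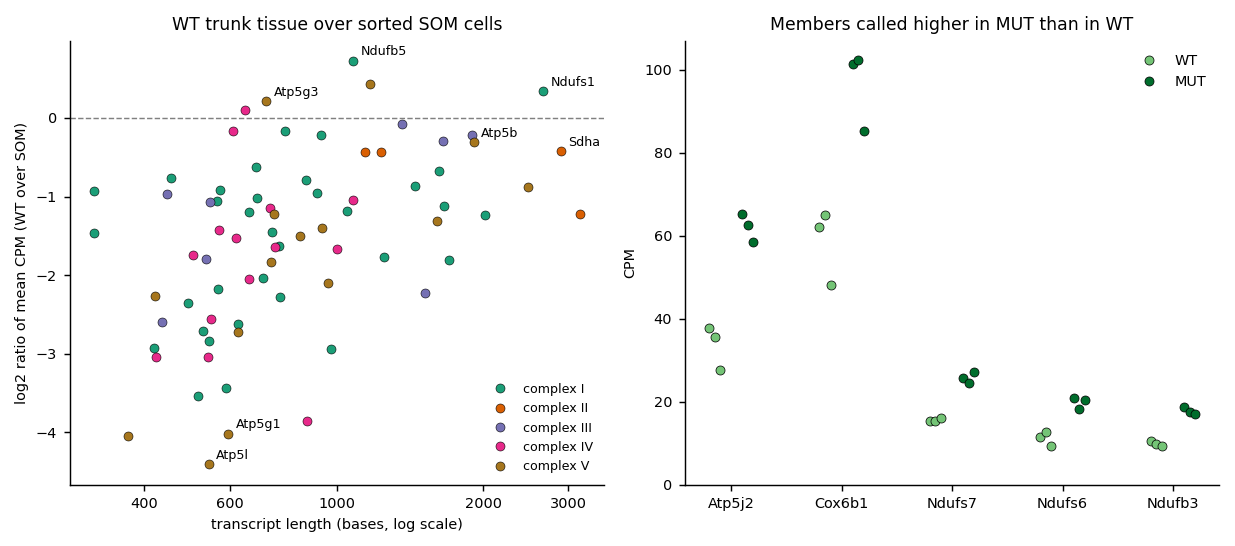
Left, log2 ratio of mean CPM between WT and the 15 sorted SOM libraries (y axis) against transcript length (x axis, log scale) for each subunit gene, coloured by complex; members under 600 bases have a median of −2.36. Right, CPM (y axis) in each WT and MUT library (points) of the 5 members called higher in MUT (x axis), whose groups do not overlap.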

How the data were processed

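RNA-seq counts per gene were deposited for 29 libraries. The authors aligned reads with TopHat2 2.0.9 and counted them with HTSeq 0.6, per the submitters' processing notes, which also name Cufflinks and DESeq2 1.10 and the mouse build mm10. Annotation and strand setting: not given in the sources used here. Per the labels, libraries were made with a TruSeq v2 kit and 11 rounds of PCR. The deposited counts are raw; the 5 summary lines of HTSeq were left out of library sizes.

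Counts were tested with edgeR 4.0.16 in R 4.3.3: the quasi-likelihood test with TMM scaling, genes kept with a minimum count of 10 and a total of 15, a prior count of 0.125, and Benjamini-Hochberg adjustment over all genes tested at 0.05. CTRL with DIR, the 4 SOM groups, WT with MUT, and CTRL with SOMA were fitted separately. DESeq2 1.42.0, other scalings, no filter, a replicate block, a single fit of all libraries, and leaving out each library were alternatives; removal of a length and GC trend and the restriction to libraries with few multi-aligned reads were added after seeing the data. Replicate numbers paired the samples only for SOMB with SOMA (correlation of deviations 0.44 to 0.47) and SOMD with SOMC (0.45 to 0.56), taken from the data since the labels do not state it. Transcript lengths and coordinates came from GENCODE M21, near copies from blastn 2.17.0. The test was checked on simulated data.

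The genes described and the comparison lists were chosen with earlier results of these data known. Named were, per complex and direction, up to 3 called members with the lowest p and a set of core subunits and alternative forms, and up to 3 called genes of each other list with named regulators; others are said to have been chosen after their values were seen. The results of 1 named member are not reported here; it stays in the fits and the counts.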

Additional observations from a re-analysis of the deposited data

Results flagged for a closer look

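A single library stood apart from the others of its group of 4 (by Dixon's criterion for the gap to the nearest library) in 7 of 150 groups of values tested. Chance alone would set apart about 1 in 20 of independent groups. The members were measured in the same libraries and are not independent, so this number cannot be weighed against chance. Ndufs7 was at 6.72 CPM in CTRL1 and at 66.7 to 73.4 CPM in the other CTRL libraries. SOMC3 was high for 4 members: Atp5b at 1698 CPM against 1498 to 1517 in the other SOMC libraries, Cox6b1 at 191 against 148 to 155, Cox7a2l at 91.7 against 72.3 to 74.8, and Ndufa6 at 54.4 against 43.8 to 45.4 CPM. In SOMD, Ndufs1 was low in SOMD4, at 121.6 CPM against 123.5 to 123.8, and Ndufv1 was high in SOMD2, at 114.7 CPM against 106 to 107.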

How the results depend on the processing

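Of 12 calls of named members, 2 (Cox4i2 in SOMD against SOMA and Cox6b2 in CTRL against SOMA) were past the threshold in every alternative run, and of 140 named results not called 121 were not called in any. No direction reversed among called values. The causes of the following shifts were not tested. In MUT against WT 3 members were higher with RLE size factors (0.304% of all genes higher), 10 with library totals (0.663%) and 16 without the filter (0.961%). DESeq2 called 30 higher (3.46% of all genes) and 1 lower (1.75%). With all libraries in 1 fit 1 was higher (0.112%), and with the length and GC trend removed 0 (0.0069%). The replicate block gave 20 higher (1.88%), where the numbers do not pair the samples. Leaving out single libraries gave 0 to 6 (0 to 0.466% of all genes higher). In CTRL against SOMA 2 were higher with the replicate block (4.16% of all genes higher). With DESeq2 2 were lower (11.1% of all genes lower), and with the trend removed 18 (22.7%). Leaving out single libraries gave 2 to 16 higher (4.85 to 20.7% of all genes) and 0 to 2 lower (3.35 to 17.9%). In SOMD against SOMA 2 were lower with the near-identical pairs summed (6.78% of all genes lower) and 2 with all libraries in 1 fit (6.19%). Leaving out single libraries gave 1 to 3 lower (6.4 to 9.3% of all genes). In DIR against CTRL 4 of 79 were higher with all libraries in 1 fit, where 5.26% of all genes were higher. With the trend removed 1 was lower (1.21% of all genes lower). In SOMB against SOMA 1 was lower with each library's unassigned reads (in no feature) as a covariate, where 6.0% of all genes were lower. In SOMC against SOMB 1 was lower with DESeq2 (0.928% of all genes lower). Where the numbers pair the samples, SOMB with SOMA and SOMD with SOMC, the replicate block changed no call (0 members).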
